A study of Rattus norvegicus with 24 samples.

Results

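The genes described here build, nucleate, cap and move along actin filaments and microtubules in rat cumulus-oocyte complexes, each an oocyte enclosed by its cumulus granulosa cells. Members were taken by symbol: every probe whose annotated gene symbol begins with Acta, Actb, Actg, Actn, Actr, Myh, Myl, Myo and a digit, Tpm, Tuba, Tubb, Tubg, Kif, Arpc or Capz. That gave 116 probes for 111 genes, out of 13228 genes named on the array. Of these probes, 61 probes of 59 genes were tested, because their detection score passed 0.99 on at least 6 of the 24 arrays. The other 55 were not tested: 47 were detected on no array and 8 on 1 to 5 arrays. The letters of the rule also admit genes with other duties, such as Actr6, whose product works in a nuclear chromatin remodelling complex, and Mylip, which was not tested.

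The study asked how each hormone of a superovulation schedule changes gene expression in these complexes. The complexes came from sexually mature Sprague Dawley females, with 1 array and 1 rat per sample and 6 rats in each of 4 groups. One group received GnRH, eCG and hCG (GnRH+eCG+hCG, below the hCG group), one GnRH and eCG (GnRH+eCG), one GnRH alone, and one no hormone (control). GnRH is gonadotropin-releasing hormone, equine chorionic gonadotropin (eCG) acts mainly like follicle-stimulating hormone, and human chorionic gonadotropin (hCG) acts at the receptor of luteinizing hormone and sets off ovulation. The sources used here give neither doses nor times, and the labels do not say how many complexes each sample pooled.

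Actin filaments branch through the Arp2/3 complex, are bundled by actinins, stabilised by tropomyosins and contracted by myosin II, a motor of heavy and light chains. Microtubules are polymers of alpha and beta tubulin that grow from gamma-tubulin rings, and kinesins walk along them or build the spindle. In the cumulus-oocyte complex, cumulus cells reach the oocyte through thin actin-rich projections, and these connections are withdrawn as the cumulus expands after the ovulatory signal. In the same interval the oocyte resumes meiosis on a spindle of microtubules.

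The arrays detected 25.3% to 37.9% of their probes, and median raw signal ran from 140.5 to 235.4. Raw signal was higher in rats 1 to 12 (176.7 to 235.4) than in rats 13 to 24 (140.5 to 180.0), and each set held 3 rats of every group. GnRH rats 5 and 16 stood apart from the other GnRH rats: both lay above the other 4 for 22 of the 61 tested members and below them for 14. They lay on the hCG side of the other 4 for 7 of the 12 members that rose with hCG against GnRH+eCG and for 7 of the 10 that fell. Members whose calls changed when these rats were left out are named below. Oocyte markers and granulosa markers were both present: 9 of 20 oocyte markers, among them Zp3 and Gdf9, and 10 of 14 cumulus and granulosa markers, among them Inhba, Fshr and Cyp19a1, were tested. Since a complex is a mixture, fewer cells of a type and less RNA per cell cannot be told apart.

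Most movement of the cytoskeletal genes came with hCG. Against GnRH+eCG, 12 of the 61 members rose and 10 fell in the hCG group (limma, adjusted p under 0.05 over all 8082 tested probes). This was 36.1% of the members, against 39.8% of all tested probes, a share close to that of all probes. By direction, 19.7% of members and 17.8% of all tested probes rose, and 16.4% of members and 22% of all tested probes fell. At an unadjusted p under 0.05, 31 members and 47.6% of all tested probes differed. The median log2 difference was 0.04 over the members and -0.04 over all tested probes. These shares moved with the processing. With median scaling of the arrays in place of quantile normalization, 20 members rose and 10 fell, which was 49.2% of the members against 40.2% of all tested probes; 32.8% of members and 20.5% of all tested probes rose under it, and 16.4% and 19.8% fell. Without GnRH rats 5 and 16, whose spread enters the shared error of the fit, 17 members rose and 11 fell of the 60 then tested (46.7%, against 42.5% of all tested probes). The 6 calls gained were those of Arpc1a, Arpc1b, Arpc4, Arpc5, Myh9 and Kifc1. All 22 called members kept their sign in rats 1 to 12 and in rats 13 to 24 taken separately. The same rats made the calls, so this agreement is not independent support. Only 2 members rose and 6 fell past the threshold in the first set, and 7 rose and 4 fell in the second. Of all 8082 tested probes, 551 rose and 458 fell in the first set, and 756 rose and 815 fell in the second. The 12 rises included all 3 tropomyosin probes and 2 Arp2/3 subunits, and the 10 falls included 5 tubulin and gamma-tubulin genes and 3 kinesins, as the plot of all 61 differences shows.

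**Figure D1:**
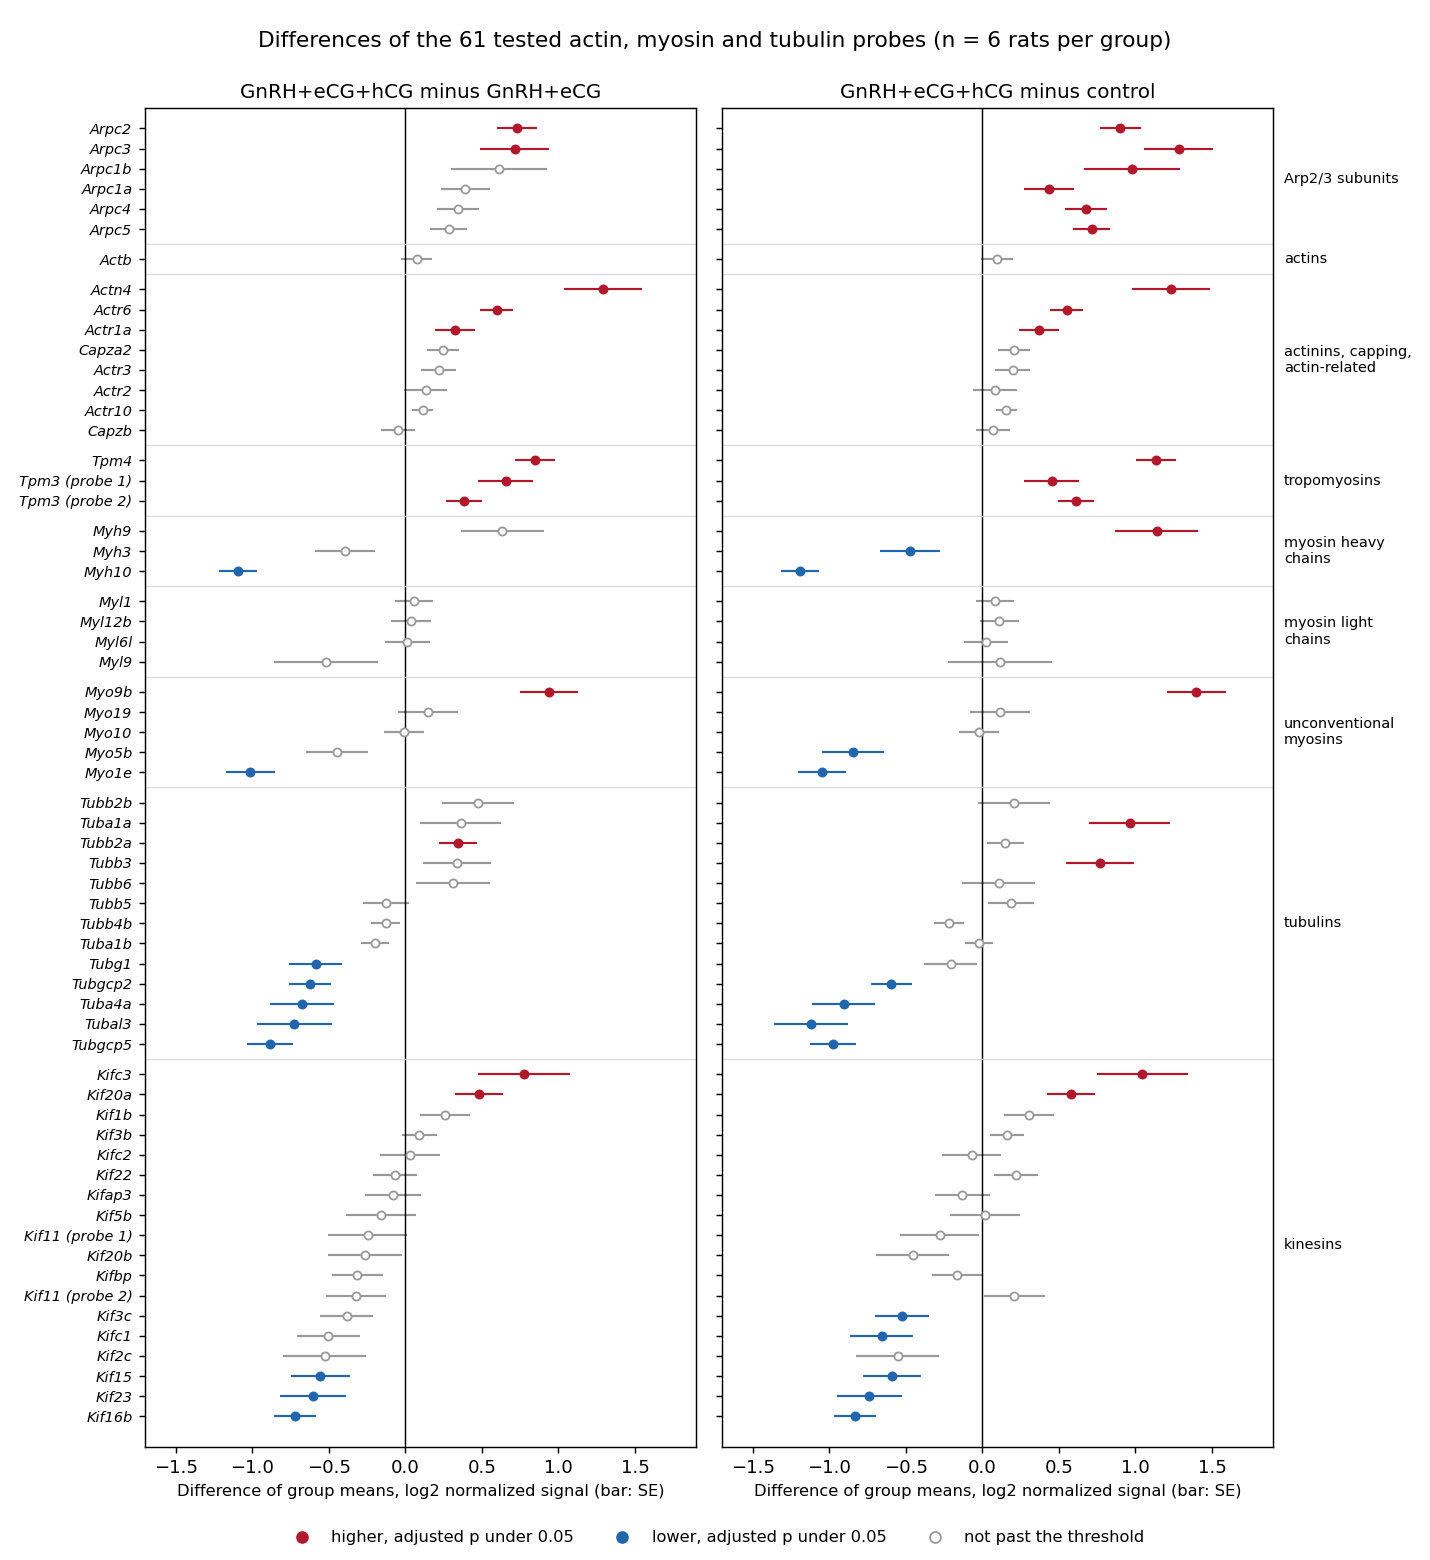
Differences of group means in log2 normalized signal (x axis; points with SE bars) for the 61 tested probes, grouped by family down the page; left, the hCG group minus GnRH+eCG, and right, the hCG group minus control (n = 6 rats per group). Filled points passed an adjusted p of 0.05; all 6 Arp2/3 subunits and all 3 tropomyosin probes lie right of 0 in both panels, and Myh10, Myo1e and Tubgcp5 lie far left in both.

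The 6 tested members with Arpc symbols, called the Arp2/3 subunits here, all had higher means in the hCG group than in GnRH+eCG. Of them 2 passed the test (33.3%, against 39.8% of all tested probes). The subunits ran with a median log2 difference of 0.50. Arpc2, which with Arpc4 forms the core of the complex, stood at 11.67, 11.89 and 12.13 (lowest, median and highest log2 normalized signal) in the hCG group, against 10.97, 11.11 and 11.60 in GnRH+eCG. The groups did not overlap, and the difference was 0.73 ± 0.13 (SE, adjusted p = 1.7e-04), or 1.66-fold. Arpc3, a subunit that lies beside Arp3, stood at 10.03, 10.27 and 10.48 in the hCG group and at 9.16, 9.42 and 10.19 in GnRH+eCG. A single GnRH+eCG rat reached into the hCG range, and the difference was 0.71 ± 0.22 (adjusted p = 0.014).

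The remaining subunits did not pass. Arpc4 had a difference of 0.34 ± 0.14 (adjusted p = 0.0505), Arpc1a 0.39 ± 0.16 (adjusted p = 0.058), Arpc5 0.28 ± 0.12 (adjusted p = 0.073) and Arpc1b 0.61 ± 0.31 (adjusted p = 0.128). Arpc5 stood at 11.27 to 11.52 in the hCG group and at 10.80 to 11.27 in GnRH+eCG, with no overlap. Without GnRH rats 5 and 16, all 6 subunits passed, with a median difference of 0.50, where 42.5% of all tested probes were called. With median scaling and with cyclic loess, 5 of 6 passed, where 40.2% and 38.4% of all tested probes were called. Within rats 1 to 12 and within rats 13 to 24, 1 of 6 passed as higher in each. Of all 8082 tested probes, 551 and 756 rose within those sets. The actin-related proteins that give the complex its name, Arp2 (Actr2) and Arp3 (Actr3), had differences of 0.13 ± 0.14 (adjusted p = 0.49) and 0.22 ± 0.11 (adjusted p = 0.135).

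Against control, all 6 Arp2/3 subunits rose, with a median log2 difference of 0.81, but Actr2 and Actr3 did not pass (differences of 0.08 and 0.20). In that comparison 51.8% of all tested probes and 31 of 61 members (50.8%) were called. Arpc3 stood at 8.54, 8.94 and 9.52 in control, and all 6 hCG values lay above, with a difference of 1.28 ± 0.22 (adjusted p = 6.1e-05), or 2.43-fold. Arpc2 differed by 0.90 ± 0.13 (adjusted p = 8.7e-06) and Arpc1b by 0.98 ± 0.31 (adjusted p = 0.012). For 5 of the 6 subunits the hCG and control values did not overlap, which also held for 26.1% of all tested probes. Arpc1a, at 9.50 to 9.91 in the hCG group and 8.93 to 9.51 in control, was the exception. The GnRH+eCG and GnRH means of all 6 subunits lay above the control mean, without a call, as the plot of group means shows.

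The window of 250 bases before to 50 bases after the annotated start of Arpc3 is printed because this subunit differed from control by more than any other Arp2/3 subunit. Capitals mark a CCAAT motif, the box bound by NF-Y, and the letters TTTGAA, the core of the cell cycle homology region, on either strand; a CArG box, the element of serum response factor at many actin and myosin genes, was also searched by that name and was not found in this window.
Arpc3 (chr12:39847387-39847686, minus strand): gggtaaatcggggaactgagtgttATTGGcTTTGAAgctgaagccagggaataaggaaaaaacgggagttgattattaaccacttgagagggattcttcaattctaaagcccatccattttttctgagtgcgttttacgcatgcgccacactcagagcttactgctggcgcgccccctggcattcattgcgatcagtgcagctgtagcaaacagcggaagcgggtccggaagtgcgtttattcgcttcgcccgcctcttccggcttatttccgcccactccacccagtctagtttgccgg
Sequence and coordinates are from RefSeq, build GRCr8, written 5′ to 3′ on the gene's strand. Among the 5 tested Arp2/3 subunits with a window, 1 held CCAAT and 1 held TTTGAA, and it was Arpc3 in both cases.

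**Figure D2:**
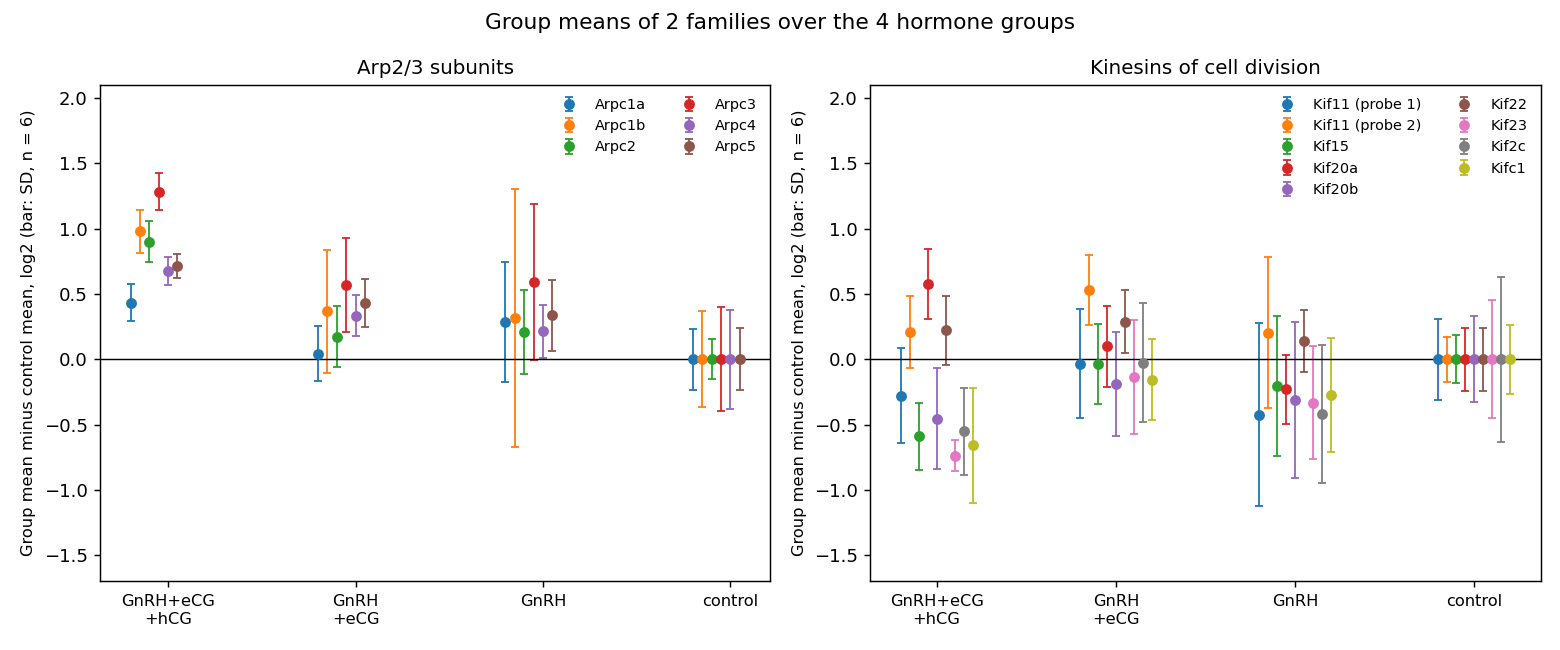
Group means minus the control mean in log2 normalized signal (y axis; bars show SD, n = 6 rats) in the 4 hormone groups (x axis) for the 6 Arp2/3 subunits (left) and 9 probes of 8 kinesins of cell division (right). The hCG means of the Arp2/3 subunits lie 0.43 to 1.28 above control; of the kinesins of cell division, 6 of 9 probes have hCG means below control and Kif20a has the highest.

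Among actinins, capping proteins and actin-related proteins, 3 of 8 members rose against GnRH+eCG and none fell (0 of 8). That was 37.5% called, against 39.8% of all tested probes, of which 17.8% rose. Unadjusted limma p was under 0.05 for 4 of 8, all higher. The median log2 difference was 0.23. With median scaling 6 of 8 rose, with a median of 0.40, and with cyclic loess 5 of 8, with a median of 0.30. Of all tested probes, 20.5% and 18.6% rose under these settings. Within rats 1 to 12, 0 of 8 rose past the threshold, and within rats 13 to 24, 2 of 8. Actn4, alpha-actinin 4, which crosslinks filaments in non-muscle cells, had the largest rise of all 61 members. It stood at 7.75, 8.29 and 8.66 in the hCG group, detected on all 6 arrays, and at 6.82, 6.96 and 7.25 in GnRH+eCG, detected on 2 of 6. No value overlapped, and the difference was 1.29 ± 0.25 (adjusted p = 3.8e-04), or 2.45-fold. GnRH rats 5 and 16 had Actn4 values of 8.57 and 8.37, in the hCG range, while the other 4 GnRH rats lay between 6.74 and 7.31.

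Actr6, the chromatin remodelling member, stood at 11.69, 11.94 and 11.99 in the hCG group and at 11.17, 11.26 and 11.58 in GnRH+eCG, a rise of 0.60 ± 0.11 (adjusted p = 1.5e-04) without overlap. Actr1a, which forms the short actin-like filament of dynactin, rose by 0.33 ± 0.13 (adjusted p = 0.048), and this call was lost when any 1 of 16 of the 24 arrays was left out (adjusted p = 0.0504 to 0.106). Capza2 and Capzb, subunits of the protein that caps fast-growing filament ends, had differences of 0.25 ± 0.10 (adjusted p = 0.061) and -0.05 ± 0.11 (adjusted p = 0.76). Actr10, another dynactin subunit, had a difference of 0.11 ± 0.07 (adjusted p = 0.19).

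Actb, the cytoplasmic beta-actin, did not pass the test in any comparison. It stood at 11.76, 11.94 and 12.14 in the hCG group, 11.77, 11.89 and 12.03 in GnRH+eCG, 11.82, 12.02 and 12.24 in GnRH and 11.65, 11.79 and 12.28 in control. The 4 groups overlapped throughout. Its difference between the hCG group and GnRH+eCG was 0.07 ± 0.10 (adjusted p = 0.61); with median scaling it passed as higher (adjusted p = 0.011). The identifier of this probe differed between the 2 deposited tables, and its detection scores were attached by matching its 24 signals. Actg1, the other cytoplasmic actin, was detected on no array, and Acta1 and Actbl2 were not tested either.

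All 3 tropomyosin probes rose against GnRH+eCG (3 of 3, median 0.66), where 17.8% of all tested probes rose. Tpm4, a tropomyosin of non-muscle cells, stood at 12.88, 13.25 and 13.35 in the hCG group, 12.20, 12.35 and 12.49 in GnRH+eCG and 11.70, 12.14 and 12.28 in control. Every hCG value lay above every value of both groups. The difference was 0.85 ± 0.13 against GnRH+eCG (adjusted p = 3.0e-05) and 1.14 ± 0.13 against control (adjusted p = 4.0e-07), or 2.20-fold. The 2 probes of Tpm3 rose by 0.66 ± 0.18 (adjusted p = 0.0057) and 0.38 ± 0.12 (adjusted p = 0.013) against GnRH+eCG. They were detected on all 6 hCG arrays and on 4 and 3 GnRH+eCG arrays. Tpm1 was detected on 1 array and not tested.

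**Figure D3:**
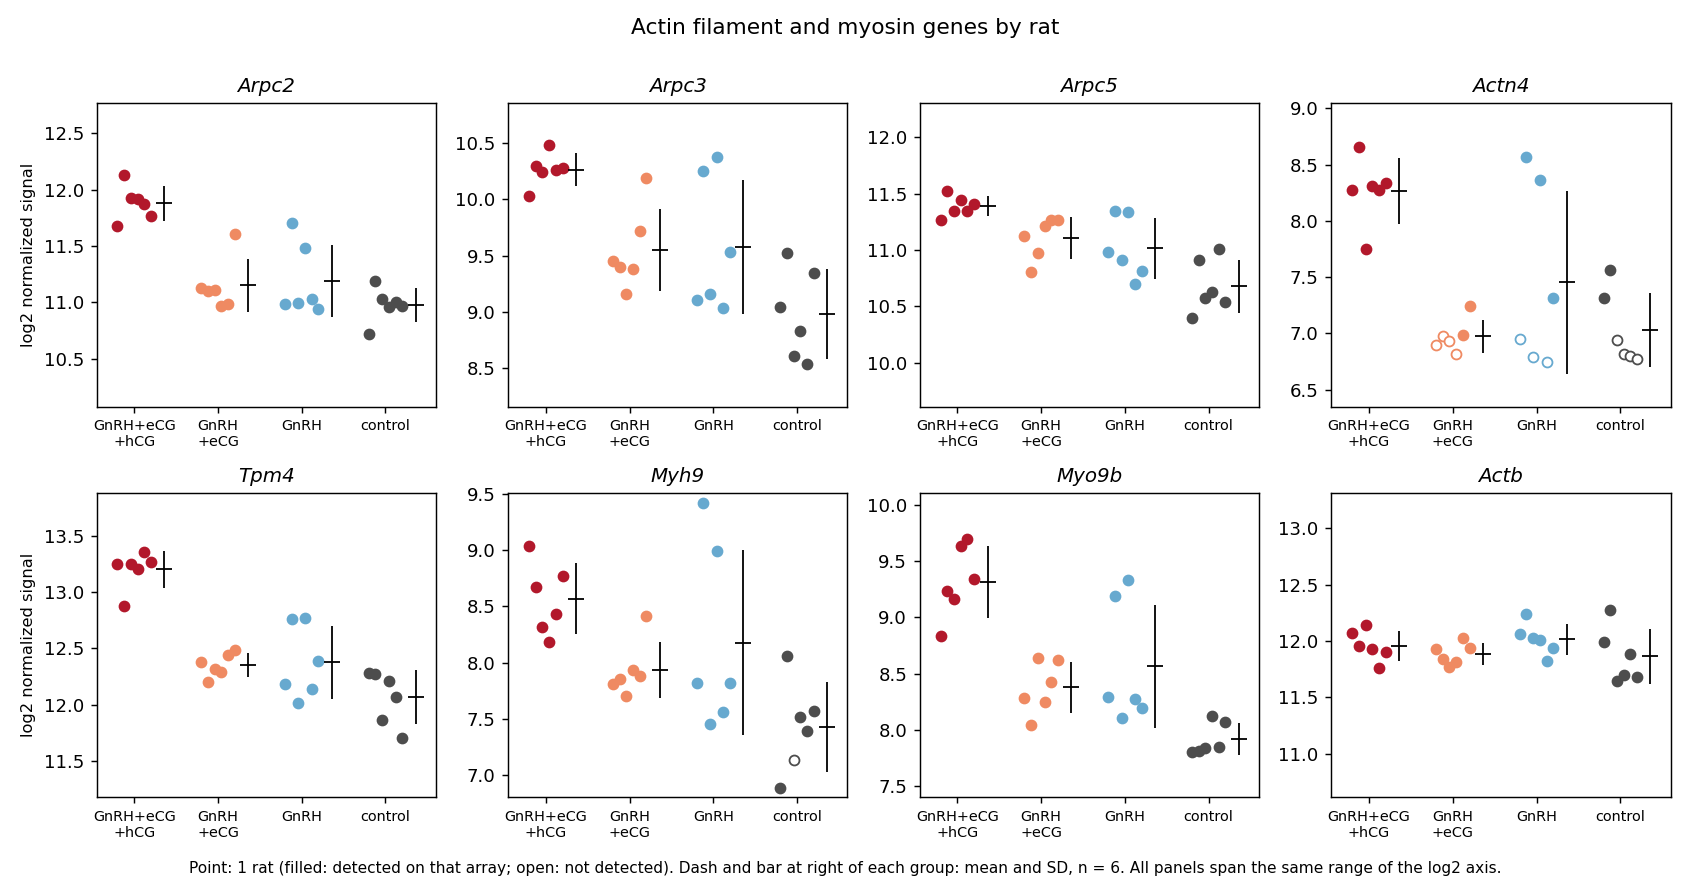
Log2 normalized signal (y axis) of each rat in the 4 groups (x axis) for 8 actin-filament and myosin genes; filled points were detected on that array, open points were not, and the dash and bar give the mean and SD (n = 6). The hCG points of Arpc2, Arpc5, Actn4, Tpm4 and Myo9b lie above all GnRH+eCG points. Of the GnRH points, 2 lie in or near the hCG range for Arpc2, Arpc3, Arpc5, Actn4, Tpm4, Myh9 and Myo9b, and Actb overlaps in all groups.

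The heavy chains of non-muscle myosin II moved apart. Myh10, the heavy chain of myosin IIB, had the smallest p of all members. It stood at 9.61, 9.71 and 9.77 in the hCG group, 10.61, 10.72 and 11.07 in GnRH+eCG, 10.30, 10.90 and 11.01 in GnRH and 10.63, 10.81 and 11.19 in control. The hCG rats lay close together and below every other rat. The difference was -1.09 ± 0.12 against GnRH+eCG (adjusted p = 5.9e-07), or 2.13-fold lower, and -1.19 ± 0.12 against control (adjusted p = 9.3e-08).

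Myh9, the heavy chain of myosin IIA, stood at 8.18, 8.55 and 9.04 in the hCG group, 7.70, 7.87 and 8.41 in GnRH+eCG and 6.89, 7.45 and 8.06 in control. It rose against control, without overlap, by 1.14 ± 0.27 (adjusted p = 0.0013), or 2.21-fold. Against GnRH+eCG its difference was 0.63 ± 0.27 (adjusted p = 0.066). Without GnRH rats 5 and 16, at 9.42 and 8.99, that difference passed (adjusted p = 0.0052); it also passed without rat 5, rat 16 or GnRH+eCG rat 21 alone. Myh3, the embryonic skeletal heavy chain, was detected on 0 of 6 hCG, 2 of 6 GnRH+eCG, 1 of 6 GnRH and 4 of 6 control arrays. Its difference from GnRH+eCG was -0.39, which did not pass (adjusted p = 0.114). Its hCG mean was at least 1.36-fold lower than the control mean (adjusted p = 0.046), a call lost without GnRH rats 5 and 16 (adjusted p = 0.051).

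No light chain passed the test against GnRH+eCG or against control (limma, 0 of 4 in both, also at an unadjusted p under 0.05). Of all tested probes, 39.8% and 51.8% were called in these comparisons, and 47.6% and 57.1% had an unadjusted p under 0.05. Myl12b and Myl9 are regulatory light chains of non-muscle and smooth muscle myosin. Myl12b stood at 9.87, 10.17 and 10.39 in the hCG group and at 9.98, 10.11 and 10.27 in GnRH+eCG, a difference of 0.04 ± 0.13 (adjusted p = 0.85). Myl9 had a wider spread, at 7.80, 8.13 and 8.95 in the hCG group and 7.66, 8.83 and 9.93 in GnRH+eCG, and differed by -0.52 ± 0.34 (adjusted p = 0.23). Myl6l, annotated as a relative of the essential light chain Myl6, differed by 0.01 ± 0.15 (adjusted p = 0.96), and Myl1, the essential light chain of fast muscle, by 0.06 ± 0.12 (adjusted p = 0.76). The kinases Mylk, Mylk2 and Mylk3 were not tested.

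Unconventional myosins also split. Myo1e, a single-headed motor that ties membranes to actin, stood at 6.37, 6.43 and 6.56 in the hCG group and at 7.15, 7.44 and 7.96 in GnRH+eCG. It was detected on 0 of 6 hCG arrays, on all 6 GnRH+eCG and GnRH arrays and on 5 of 6 control arrays, so its level in the hCG group is only bounded. The fall was at least 1.91-fold (adjusted p = 3.5e-05), a bound in which each hCG array counts at no less than the dimmest signal detected on it. Myo9b, an actin-based motor, went the other way, at 8.83, 9.29 and 9.69 in the hCG group, 8.05, 8.35 and 8.64 in GnRH+eCG and 7.81, 7.84 and 8.12 in control. All hCG values lay above both groups, and the rise was 0.94 ± 0.19 against GnRH+eCG (adjusted p = 4.9e-04) and 1.40 ± 0.19 against control (adjusted p = 3.2e-06), or 2.64-fold. Myo5b, a motor of recycling endosomes, was detected on no hCG array, on 3 of 6 GnRH+eCG arrays and on 4 of 6 control arrays. Its hCG mean was at least 1.77-fold lower than the control mean (adjusted p = 0.0013). Its difference from GnRH+eCG was -0.45, which did not pass (adjusted p = 0.083). Myo19, a motor found on mitochondria, and Myo10, a motor of filopodia, differed by 0.15 ± 0.20 (adjusted p = 0.59) and -0.01 ± 0.13 (adjusted p = 0.97) from GnRH+eCG.

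The windows of the 2 myosins with the clearest falls are printed with the same capitals, and in Myo1e they also mark the CArG box.
Myh10 (chr10:53893014-53893313, plus strand): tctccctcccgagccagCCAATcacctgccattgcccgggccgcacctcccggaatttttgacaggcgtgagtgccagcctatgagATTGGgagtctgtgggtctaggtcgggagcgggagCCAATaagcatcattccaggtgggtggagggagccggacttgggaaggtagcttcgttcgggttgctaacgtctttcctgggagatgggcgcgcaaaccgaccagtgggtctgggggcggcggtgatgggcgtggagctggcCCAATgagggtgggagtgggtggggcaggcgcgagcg
Myo1e (chr8:79768578-79768877, plus strand): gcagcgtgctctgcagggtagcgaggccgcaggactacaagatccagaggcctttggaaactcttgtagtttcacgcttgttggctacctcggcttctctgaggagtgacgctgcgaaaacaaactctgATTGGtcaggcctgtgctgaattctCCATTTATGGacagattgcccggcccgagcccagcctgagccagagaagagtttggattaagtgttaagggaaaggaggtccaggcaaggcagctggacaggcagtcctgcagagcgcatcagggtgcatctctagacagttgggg
Both come from RefSeq, build GRCr8. Myh10 held 4 CCAAT motifs and Myo1e 1 CCAAT motif and 1 CArG box, and none of the motifs overlapped another. The CArG box was present in 6 of the 97 member genes with a window (6.19%) and in 1.77% of the 27457 genes of the table. Of the 52 tested member genes with a window, 2 held it (3.85%), Myo1e and Kif20b.

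Among tubulins and their nucleating factors, 1 of 13 rose and 5 fell against GnRH+eCG. That was 46.2% called, against 39.8% of all tested probes, and 38.5% lower, against 22%. The median difference was -0.13, but it was 0.12 with median scaling, under which 3 rose and 5 fell. Of all tested probes, 20.5% rose and 19.8% fell under that scaling. All 3 tested genes of gamma-tubulin and its ring complex fell. Tubgcp5, a subunit of the gamma-tubulin ring complex, stood at 7.36, 7.93 and 8.16 in the hCG group, 8.24, 8.86 and 9.03 in GnRH+eCG and 8.60, 8.83 and 9.17 in control. The difference was -0.89 ± 0.15 against GnRH+eCG (adjusted p = 8.1e-05), or 1.85-fold lower, without overlap.

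Tubgcp2, a further ring subunit, stood at 6.64, 6.68 and 6.95 in the hCG group, detected on none of 6 arrays (0 of 6), and at 7.14, 7.38 and 7.56 in GnRH+eCG, detected on 6 of 6. It was at least 1.54-fold lower than in GnRH+eCG (adjusted p = 8.3e-04) and at least 1.51-fold lower than in control. Tubg1, gamma-tubulin itself, stood at 6.78, 6.85 and 7.10 in the hCG group, detected on 1 of 6 arrays, and at 7.29, 7.49 and 7.59 in GnRH+eCG, detected on 6 of 6. Its difference was -0.59 ± 0.17 (adjusted p = 0.011), without overlap. Against control, where Tubg1 stood at 6.68, 6.95 and 7.95 and was detected on 2 of 6 arrays, it did not pass. The remaining ring subunits Tubgcp3, Tubgcp4 and Tubgcp6 were not tested.

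Alpha and beta tubulins went in both directions. Tuba4a stood at 9.48, 9.89 and 10.16 in the hCG group and at 9.95, 10.54 and 11.26 in GnRH+eCG, a fall with a log2 difference of -0.68 ± 0.21 (adjusted p = 0.013) with overlap. Tubal3, an alpha tubulin-like gene, fell by 0.72 ± 0.24 on the log2 scale (adjusted p = 0.022), detected on 3 of 6 hCG and 6 of 6 GnRH+eCG arrays. Tubb2a, a beta tubulin, stood at 11.92, 12.18 and 12.27 in the hCG group and at 11.41, 11.79 and 12.24 in GnRH+eCG, a rise of 0.34 ± 0.12 (adjusted p = 0.029). It did not pass against control.

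The other alpha and beta tubulins did not pass against GnRH+eCG. Tuba1a, an alpha tubulin, stood at 13.46, 13.61 and 13.90 in the hCG group, 13.05, 13.25 and 13.65 in GnRH+eCG, 12.38, 13.00 and 13.72 in GnRH and 11.87, 12.40 and 13.96 in control. It rose against control by 0.96 ± 0.26 (adjusted p = 0.0042), although 1 control rat lay above every hCG rat, and its difference from GnRH+eCG was 0.36 ± 0.26 (adjusted p = 0.29). Tubb3, the beta tubulin typical of neurons, was detected on 3 of 6 hCG, 2 of 6 GnRH+eCG, 2 of 6 GnRH and 0 of 6 control arrays. Its hCG mean, undetected arrays included, was at least 1.64-fold higher than the control mean (adjusted p = 0.0057). Its difference from GnRH+eCG was 0.34 ± 0.22 (adjusted p = 0.24). Without GnRH rats 5 and 16 it was detected on too few arrays to be tested. Tubb5, a beta tubulin of most cells, stood at 9.59, 9.93 and 10.19 in the hCG group and at 9.71, 10.01 and 10.25 in GnRH+eCG, a difference of -0.13 ± 0.15 (adjusted p = 0.54). Tubulin genes are close relatives, and whether each probe reads 1 of them was not tested.

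**Figure D4:**
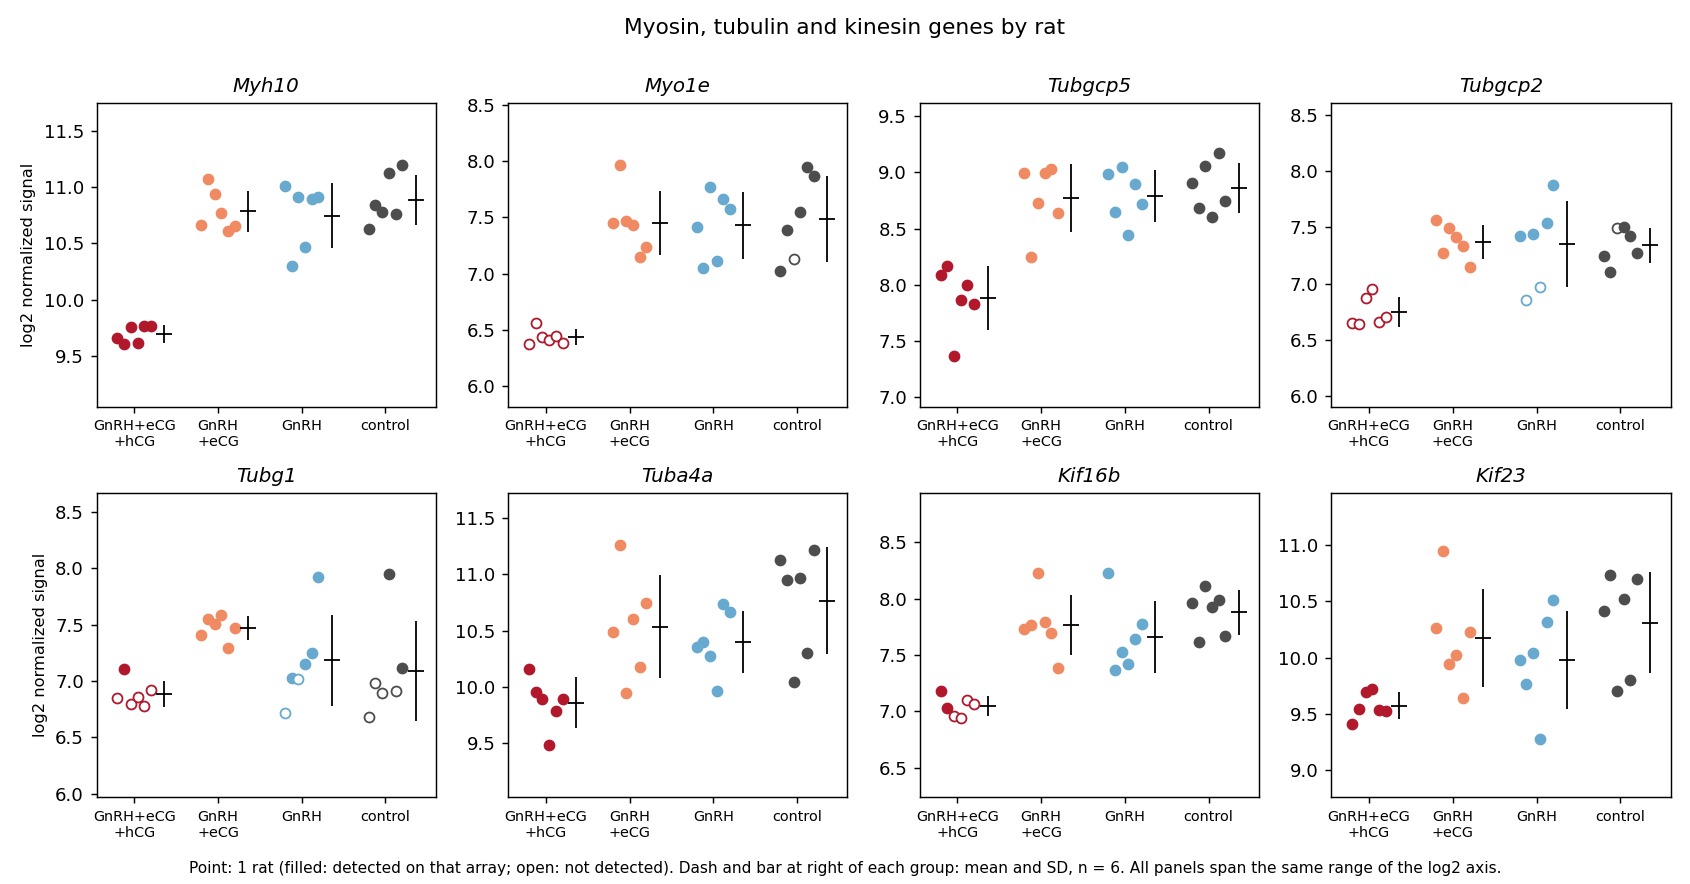
Log2 normalized signal (y axis) of each rat in the 4 groups (x axis) for 8 members that fell in the hCG group against GnRH+eCG; filled points were detected on that array, open points were not, and the dash and bar give the mean and SD (n = 6). Myo1e and Tubgcp2 are open on all 6 hCG arrays, the 6 Myh10 points of the hCG group lie between 9.61 and 9.77, below all other rats, and Tuba4a and Kif23 overlap GnRH+eCG.

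The window of Tubgcp2 is printed because this ring subunit was undetected on all 6 hCG arrays, with its 2 CCAAT motifs in capitals.
Tubgcp2 (chr1:204242280-204242579, minus strand): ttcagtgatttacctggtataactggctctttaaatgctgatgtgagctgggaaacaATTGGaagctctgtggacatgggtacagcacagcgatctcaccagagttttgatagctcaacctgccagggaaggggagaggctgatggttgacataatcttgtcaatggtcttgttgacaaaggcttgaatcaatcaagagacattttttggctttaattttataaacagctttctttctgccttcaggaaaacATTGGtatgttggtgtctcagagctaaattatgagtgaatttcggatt
The window is from RefSeq, build GRCr8. CCAAT was found in 10 of the 13 tested tubulin and ring subunit genes (76.9%). It was found in 30 of the 52 tested member genes with a window (57.7%). It was also in 45 of all 97 member genes with one (46.4%) and in 39.6% of the genes of the table.

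Of 18 kinesin probes, 2 rose and 3 fell against GnRH+eCG, with a median of -0.26. That was 27.8% called, against 39.8% of all tested probes. The 18 include Kifap3 and Kifbp, which the letters of the rule admit and which encode partners of kinesins, not kinesins. Kif16b, a kinesin that carries early endosomes, stood at 6.94, 7.05 and 7.18 in the hCG group, detected on 2 of 6 arrays, and at 7.39, 7.75 and 8.23 in GnRH+eCG, detected on 6 of 6. Its fall, with a log2 difference of -0.72 ± 0.14 (adjusted p = 2.5e-04), came without overlap, and it fell by 0.83 ± 0.14 on the log2 scale against control (adjusted p = 3.1e-05). Kifc3, a minus-end directed kinesin, rose by 0.77 ± 0.30 (adjusted p = 0.043) with overlap, at 6.99, 7.77 and 9.15 in the hCG group and 6.78, 7.04 and 7.71 in GnRH+eCG.

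Of the 9 probes for 8 kinesins of cell division, 1 rose and 2 fell against GnRH+eCG (33.3% called, against 39.8% of all tested probes). Kif20a, needed for the final cut of cytokinesis, stood at 9.94, 10.36 and 10.73 in the hCG group and at 9.53, 9.74 and 10.32 in GnRH+eCG, a rise of 0.48 ± 0.16 (adjusted p = 0.018). Kif23, the motor of the central spindle, stood at 9.41, 9.54 and 9.72 in the hCG group and at 9.64, 10.13 and 10.94 in GnRH+eCG, a fall with a log2 difference of -0.60 ± 0.21 (adjusted p = 0.028). Kif15, a spindle motor, stood at 9.09, 9.37 and 9.81 in the hCG group and at 9.39, 9.97 and 10.33 in GnRH+eCG, a fall with a log2 difference of -0.56 ± 0.19 (adjusted p = 0.025). The hCG and GnRH+eCG values of all 3 genes overlapped. The calls of Kif23 and Kif15 were lost without GnRH+eCG rat 8 or without hCG rat 10, and that of Kif15 also without hCG rat 23, with adjusted p up to 0.085 for Kif23 and 0.064 for Kif15.

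Kif11, the bipolar motor that pushes spindle poles apart, had 2 probes with differences of -0.32 ± 0.20 (adjusted p = 0.21) and -0.25 ± 0.26 (adjusted p = 0.48). Kifc1, which gathers spindle poles, had -0.50 ± 0.20 (adjusted p = 0.053). Without GnRH rats 5 and 16 this difference passed (adjusted p = 0.035) and made 4 of 18 kinesin probes lower, where 23.4% of all tested probes were lower. Kifc1 fell against control by 0.66 ± 0.20 on the log2 scale (adjusted p = 0.0096). Among 15 tested markers of dividing cells, Ccnb2, a cyclin of mitosis, fell by 0.97 ± 0.20 on the log2 scale against GnRH+eCG. None of the others passed, so 6.67% of the list was called, against 39.8% of all tested probes. Against control 3 of 15 fell (20%), where 27.4% of all tested probes fell. The summed log2 level of that list was 13.26 to 13.71 in the hCG group and 13.44 to 14.04 in GnRH+eCG. Its part in the kinesin results was not tested.

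The window of Kif23 holds CCAAT and TTTGAA close to each other, both in capitals.
Kif23 (chr8:71320535-71320834, minus strand): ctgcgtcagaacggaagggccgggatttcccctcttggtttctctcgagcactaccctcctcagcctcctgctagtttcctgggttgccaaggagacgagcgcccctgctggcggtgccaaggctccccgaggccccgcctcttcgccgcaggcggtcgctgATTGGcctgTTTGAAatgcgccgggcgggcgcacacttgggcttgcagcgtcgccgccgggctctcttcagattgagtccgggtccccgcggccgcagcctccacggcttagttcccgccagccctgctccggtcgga
The window is from RefSeq, build GRCr8. TTTGAA was found in 5 of the 15 tested Kif members with a window (33.3%), Kifap3 and Kifbp included. It was found in 10 of the 52 tested member genes with a window (19.2%). It was also in 14 of all 97 member genes with one (14.4%) and in 19.4% of the genes of the table. CCAAT was found in 10 of the 15 tested Kif members (66.7%).

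Against control, 18 members rose and 13 fell in the hCG group; by direction, 29.5% of members and 24.4% of all tested probes rose, and 21.3% and 27.4% fell. At an unadjusted p under 0.05, 33 members and 57.1% of all tested probes differed. Of the 22 members called against GnRH+eCG, 20 were also called against control, all with the same sign; both comparisons use the same hCG rats. Values of the hCG and control rats did not overlap for 18 members (29.5%), and the share of all tested probes was 26.1%. Against GnRH+eCG this held for 12 members (19.7%) and 21.1% of all tested probes. The falls against control were led by Myh10, with Tubal3 (-1.12 ± 0.24, adjusted p = 5.9e-04) and Tubgcp5 (-0.98 ± 0.15, adjusted p = 1.5e-05) among the next, and Myo1e was at least 1.95-fold lower.

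Other genes of the actin pathway came from a list of 65. Of the 36 tested, 9 rose and 7 fell against GnRH+eCG, with a median of 0.14. These were 44.4% of the list, near the 39.8% of all tested probes. Ezr, ezrin, which ties actin to the cell membrane, rose by 1.39 ± 0.25 (adjusted p = 1.2e-04), and Tagln2, a filament-binding protein, rose by 1.29 ± 0.20 (adjusted p = 3.2e-05). Limk2, a kinase that switches off cofilin, fell by 0.94 ± 0.13 on the log2 scale (adjusted p = 9.5e-06), and Aif1l, an actin-bundling protein, fell by 2.01 ± 0.35 (adjusted p = 9.1e-05). These 4 genes were named for the smallest p of the list in this comparison. Their hCG and GnRH+eCG values did not overlap, which that choice favours. The same held for 12 of the 36 tested genes of the list and 21.1% of all tested probes.

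Of 34 tested microtubule regulators, from a list of 54, 4 rose and 9 fell, with a median of -0.08. The share called was 38.2%, near that of all tested probes, and 26.5% of the list fell, against 22% of all tested probes. Dync1i1, an intermediate chain of cytoplasmic dynein, rose by 1.71 ± 0.28 (adjusted p = 5.7e-05), and Dynlt1, a dynein light chain, by 0.63 ± 0.13 (adjusted p = 5.5e-04). Dynll2, another dynein light chain, fell by 0.81 ± 0.16 on the log2 scale (adjusted p = 5.1e-04), and Nde1, a dynein regulator, by 0.86 ± 0.21 (adjusted p = 0.0023). Of 7 tested intermediate filament genes, 2 rose and 0 fell (unadjusted limma p under 0.05 for 2), or 28.6% called. Nefl, the light neurofilament subunit, was detected on 6 of 6 hCG and 0 of 6 GnRH+eCG arrays. It was at least 26.97-fold higher (limma, adjusted p = 6.1e-14). Its 6 hCG arrays alone met the filter of 6 arrays, so Nefl could enter the test through the group where it was high. Lmna, lamin A of the nuclear envelope, rose by 0.76 ± 0.13 (adjusted p = 6.2e-05), and Vim, vimentin, had a difference of 0.22 ± 0.18 (adjusted p = 0.36).

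Marker lists of the cells in the sample were counted too. Against GnRH+eCG, 17.8% of all tested probes rose and 22% fell, and against control 24.4% rose and 27.4% fell. All 9 tested oocyte markers fell against GnRH+eCG, with a median of -1.36 and a summed log2 level of 11.35 to 11.97 in the hCG group and 12.16 to 14.03 in GnRH+eCG. Of 10 cumulus and granulosa markers, 0 rose and 5 fell (50%), with a summed log2 level of 15.12 to 15.71 in the hCG group and 15.42 to 15.92 in GnRH+eCG. Of 7 tested smooth muscle and theca markers, 1 fell against GnRH+eCG (14.3%), and 4 rose against control (57.1%). Their summed log2 level was 11.29 to 12.42 in the hCG group, 11.15 to 12.04 in GnRH+eCG, 9.44 to 12.78 in GnRH and 9.37 to 10.62 in control. The 4 were Col1a1, Col1a2, Col3a1 and Lum, genes of connective tissue, while the contractile markers Tagln, Cnn1, Smtn, Lmod1 and Synpo2 were detected on fewer than 6 arrays. The summed level of 5 striated muscle markers was 9.26 to 10.09 in the hCG group and 10.13 to 10.46 in GnRH+eCG. Of them 2 of 5 were lower (40%), and Ckm and Mb were not detected on 6 arrays. Of 4 tested blood and leukocyte markers, 1 rose against GnRH+eCG (25%). Against control, the comparison in which the 6 Arpc members and Myh9 rose, 3 of the 4 markers rose (75%), with a median of 0.94. The 3 were Hbb, a globin of red cells, Cd14, a receptor of monocytes, and Cd74, a chaperone of antigen-presenting cells, and Cd14 also rose against GnRH+eCG. Their summed log2 level was 11.56 to 11.93 in the hCG group, 11.07 to 12.86 in GnRH+eCG, 11.43 to 12.65 in GnRH and 10.02 to 11.58 in control, while Ptprc, Itgam, Tyrobp and Cd3e were detected on fewer than 6 arrays. Of 2 tested endothelial markers, Esam rose against GnRH+eCG and Tek against control, with a summed log2 level of 8.19 to 9.54 in the hCG group, 7.50 to 8.30 in GnRH+eCG and 7.67 to 8.13 in control; Cdh5, Vwf and Cldn5 were detected on fewer than 6 arrays. Of 4 tested markers of oviduct epithelium, 3 fell against GnRH+eCG (75%) and all 4 against control. Their summed log2 level was 8.58 to 8.78 in the hCG group, 8.85 to 10.15 in GnRH+eCG and 9.07 to 10.61 in control. The part of any of these lists in the cytoskeletal results was not tested.

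The steps without hCG gave no called member. For GnRH+eCG against control, 0 of 61 passed (limma; unadjusted p under 0.05 for 9, against 15.4% of all tested probes), and 0.421% of all tested probes did. The smallest adjusted p was that of Arpc5, which stood at 10.80, 11.17 and 11.27 in GnRH+eCG and at 10.39, 10.60 and 11.01 in control, a difference of 0.43 ± 0.12 (adjusted p = 0.106). It passed without GnRH rats 5 and 16 (adjusted p = 0.036) and without GnRH+eCG rat 8 (adjusted p = 0.046). Arpc3, Arpc4 and Myo9b had differences of 0.57 ± 0.22 (adjusted p = 0.23), 0.33 ± 0.14 (adjusted p = 0.25) and 0.46 ± 0.19 (adjusted p = 0.25).

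For GnRH+eCG against GnRH, 0 of 61 members passed (limma; unadjusted p under 0.05 for 2, against 5.37% of all tested probes), as did 0 of all tested probes; the smallest adjusted p was 0.81, for Kif1b, a kinesin of vesicle and mitochondrial transport, with a difference of -0.41 ± 0.16. For GnRH against control, 0 of 61 passed (limma; unadjusted p under 0.05 for 10, against 11.9% of all tested probes), as did 0 of all tested probes, and the smallest adjusted p was that of Myo9b, with a difference of 0.65 ± 0.19 (adjusted p = 0.377). GnRH rats 5 and 16 had Myo9b values of 9.19 and 9.33, and the other 4 GnRH rats lay between 8.11 and 8.29. Myh9, in which the same 2 rats lay highest, had a difference of 0.75 ± 0.27 (adjusted p = 0.38). Whether the hCG step differs from the eCG or GnRH steps was not tested.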

How the data were processed

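Expression was measured on 1-colour Illumina bead arrays, 1 per rat, from amplified, biotin-labelled RNA of cumulus-oocyte complexes, per the labels. The deposited values are linear intensity signals, 1 per probe, made with BeadStudio according to the submitters' processing notes; its version and settings were not given in the sources used here. The arrays kept different medians, and no value lay at or below 0. Beside each signal the deposited table gives a fraction between 0 and 1, which rises with signal and was read as 1 minus the detection p, although the file headers call it a p-value. Both deposited tables hold the same signals, listed in the second table in another number format and used there only to join rows. Identifiers matched for 21946 of 22226 probes, and 280, Actb among the members, were joined on all 24 signals within 0.002 on the log2 scale. Symbols came from the platform annotation, which can be old. It gave 1 symbol to 13599 probes, several to 0 and none to 8627, and 115 of 116 member probes matched the RefSeq gene table of GRCr8 with 0 changed symbols.

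Signals were background corrected with normexp from the detection p and an offset of 16, converted to log2 and quantile normalized. Probes with a detection score over 0.99 on at least 6 arrays were tested (8082, or 36.4%). All 24 arrays entered 1 linear model of the 4 group means (lmFit and eBayes, limma 3.58.1 in R 4.3.3; 20 residual degrees of freedom), and p-values were adjusted by Benjamini-Hochberg over the 8082 probes in each of 5 comparisons. Differences are first group minus second, with SE, and the number of arrays limits their precision. Every adjusted p printed is from limma. Where a probe was undetected on all arrays of a group, its fold is a bound: each such array counts at its lowest detected signal or at the probe's own, whichever is higher. The other group counts at its mean, undetected arrays included, so the bound is on the difference of means and leaves out its SE. The summed level of a list is log2 of the sum of its linear signals, with 1 probe per gene. The model was tested on simulated arrays.

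Up to 4 members of each family with the smallest p for the step from GnRH+eCG to hCG are named, with Actb, Myh9, Tuba1a, Tubb5 and Tubb3 in any case, and up to 4 genes of each list. Acta2 is not among the symbols of the table. Other members named were chosen after their values were seen. The members and all lists were chosen with earlier results of these data known. Slide and scan were not given in the sources used here, so rats 1 to 12 and rats 13 to 24 stood in for a batch. Alternatives covered scaling, background, offset, filter, variance model, array weights, threshold, the arrays in the fit, those sets of rats, GnRH rats 5 and 16, and each array in turn. RefSeq windows were found for 97 of 111 member genes, 5 of them with several windows, and a match there says only that these letters occur.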

Additional observations from a re-analysis of the deposited data

Results flagged for a closer look

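Among 136 groups of 6 rats examined for the named members, 6 held 1 rat whose gap to the next, divided by the range of the group, passed Dixon's critical value; chance sets apart about 1 in 20 such groups. In GnRH+eCG, rat 21 was high for Arpc2 at 11.60 (other rats 10.97 to 11.13) and for Myh9 at 8.41 (other rats 7.70 to 7.94). In the same group, rat 8 was high for Actr6 at 11.58 (other rats 11.17 to 11.30) and for Myo5b at 7.88 (other rats 6.66 to 7.05). In the hCG group, rat 11 was low for Tpm4 at 12.88 (other rats 13.20 to 13.35). In control, rat 13 was high for Tubg1 at 7.95 (other rats 6.68 to 7.12).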

How the results depend on the processing

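The number of members higher in the hCG group than in GnRH+eCG was 12 and became 20 with median scaling, 24 with array weights, 6 at an adjusted p of 0.01, 2 within rats 1 to 12 and 7 within rats 13 to 24. The number lower was 10 and became 5 at an adjusted p of 0.01, 6 within rats 1 to 12 and 4 within rats 13 to 24. Over all 8082 tested probes, the 1440 higher became 1653 with median scaling, 2071 with array weights and 967 at an adjusted p of 0.01. Within rats 1 to 12 and rats 13 to 24 they became 551 and 756. The 1775 lower became 1077 at an adjusted p of 0.01, and 458 and 815 within those sets. Over all tested probes, 44.8% of calls in that comparison were higher, and 50.8% with median scaling. Against control, 7 members rose within rats 1 to 12 and 11 within rats 13 to 24, in place of 18. Within rats 1 to 12, 5 fell, in place of 13. Sets of 3 rats per group hold fewer samples. Over all tested probes, the 1972 higher became 855 and 1418 within those sets, and the 2218 lower became 726 within rats 1 to 12. For GnRH+eCG against control, 0 members became 3 with array weights (Arpc5, Kif11 and Myo5b). There was 1 without GnRH rats 5 and 16 (Arpc5) and 1 without GnRH+eCG rat 8 (Arpc5). Over all tested probes, 21 higher and 13 lower became 287 and 250 with array weights. They became 134 and 49 without GnRH rats 5 and 16, and 95 and 45 without GnRH+eCG rat 8. The cause was not tested for these or for the scaling and weights above.

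Leaving out 1 array at a time gave 9 to 15 members higher and 7 to 11 lower against GnRH+eCG. It gave 15 to 19 higher and 12 to 14 lower against control. It gave 0 to 1 for GnRH+eCG against control, and 0 to 0 for the other 2 comparisons. Over all tested probes these fits gave 1242 to 1470 higher and 1533 to 1813 lower against GnRH+eCG. Against control they gave 1756 to 1993 higher and 2027 to 2240 lower. No named member called in either fit changed sign. Of 472 values of named members under other settings, 403 kept their side of the threshold, 35 lost it, 28 gained it and 6, not called, moved; of 816 with 1 array left out, 772 kept it, 21 lost it, 17 gained it and 6 moved. The value table of the matrix was not run as a separate alternative, because it is the source of the signals used. No paired analysis was possible because no rat number occurs in more than 1 group. The signal over background limits Myo1e, Myo5b, Tubgcp2, Myh3 and Kif3c, which were detected on no hCG array.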
